A study of Mus musculus with 24 samples.

Results

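The comparison described here set whole adrenal glands of gonadectomised XY mice that lacked the protein kinase A regulatory subunit gene Prkar1a (KO GDX, 4 arrays) against those of gonadectomised control males (WT GDX, 4 arrays). These 8 arrays were chosen by their titles and are 8 of the 24 arrays of the series, which also holds KO and WT intact males and KO and WT females with 4 arrays each. All 8 animals were 7-month-old males of a mixed background (sv129 and C57Bl/6) whose gonads had been removed within the last 2 months of life. The 4 KO GDX mice carried 2 floxed Prkar1a alleles, 1 Cre allele in the Cyp11b2 locus (Cyp11b2tm1.1(cre)Brlt) and the mTmG reporter on both alleles. The WT GDX mice were not alike. Animal 1 had no floxed allele and no Cre, animal 2 had Cre with no floxed allele and the reporter on 1 allele (mTmG/+), animal 3 had Cre with no floxed allele, and animal 4 had Cre and 1 floxed allele. Animals 1, 3 and 4 carried the reporter on both alleles. Cyp11b2 encodes aldosterone synthase, which is made in the zona glomerulosa, so Cre acts in the cells of that zone and in the cells descended from them, and all other cells of the gland keep their Prkar1a. The KO intact males and KO females, used for comparison further on, had 2 floxed alleles and Cre like the KO GDX mice. Their controls were unlike the WT GDX mice and each other: the 4 WT intact males had 2 floxed alleles and no Cre, and the 4 WT females had 1 floxed allele and Cre. All 16 were 7 months old and carried the reporter on both alleles. The titles call the arrays biological replicates.

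Protein kinase A is held inactive by regulatory subunits that bind its catalytic subunits and let go of them when cyclic AMP rises. In the adrenal cortex the pituitary hormone ACTH acts through its receptor, cyclic AMP and this kinase to drive glucocorticoid synthesis in the zona fasciculata, while angiotensin II and potassium drive aldosterone synthesis in the zona glomerulosa. In humans, inactivating mutations of PRKAR1A underlie Carney complex and a nodular adrenal disease with excess cortisol. Removal of the testes withdraws androgens, under which the X-zone, the innermost layer of the mouse cortex, normally regresses in males.

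Values are log2 signals of the authors' RMA processing, in which a difference of 1 is a doubling of signal. A gene was called when its adjusted p in a limma fit over all 24 arrays was under 0.05 (Benjamini-Hochberg over 14411 genes), and changes are given as KO GDX minus WT GDX on the log2 scale ± standard error. The p and the standard error use a spread estimated over all 24 arrays, not that of the 8 GDX arrays alone. Array medians of the 8 GDX arrays, over all probe sets, lay between 5.24 and 5.28. Their mean correlation with arrays of their own group, across the 14411 tested genes, was 0.978 to 0.985. The first principal component of the 8 arrays held 34.4% of the variance and put the KO GDX arrays at -2.16, -13.6, -17.0 and -19.8, against 6.23, 18.9, 22.5 and 4.96 for the WT GDX arrays. All KO GDX arrays lay on the other side of it from all WT GDX arrays, with KO GDX array 1 and WT GDX arrays 1 and 4 nearest to the middle. As only 4 arrays stood in each group, their number limits the precision.

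Prkar1a itself fell. Its level was 7.99, 7.66, 7.30 and 7.45 in the KO GDX glands, against 8.94, 8.92, 8.73 and 8.59 in the WT GDX glands (-1.19 ± 0.23, adjusted p 0.00477). All 4 KO GDX values lay below all WT GDX values, with KO GDX array 1 the highest of its group, and WT GDX animal 4, which had 1 floxed allele, was the lowest of the controls. Leaving out any 1 of the 8 arrays kept the call. Where in the gene the probe set lies relative to the deleted stretch was not given in the sources used here, and the gland also holds cells without Cre, so the size of the fall is not that in the Cre cells.

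Over all genes the knockout went with 325 genes higher and 284 lower in KO GDX, 609 of 14411 in total (4.23% called, 2.26% higher and 1.97% lower). Most of the changes were small: 49 rises and 16 falls reached 2-fold, and 544 called genes stayed under it. The median change of all genes was -0.01, and 46.8% of genes lay above 0. All KO GDX arrays lay on 1 side of all WT GDX arrays in 9.62% of all genes (1387), among them 482 of the called ones. The count depended on single arrays: it was 1180 without KO GDX array 1, 391 without KO GDX array 2, 214 without KO GDX array 3, 225 without KO GDX array 4, 281 without WT GDX array 2 and 287 without WT GDX array 3. In all, 169 genes kept their call whichever of the 8 arrays was left out. With the replicate number as a block 410 genes were called, 364 of them among the 609, and with the 8 GDX arrays fitted alone 49 were called, 45 of them among the 609.

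**Figure D1:**
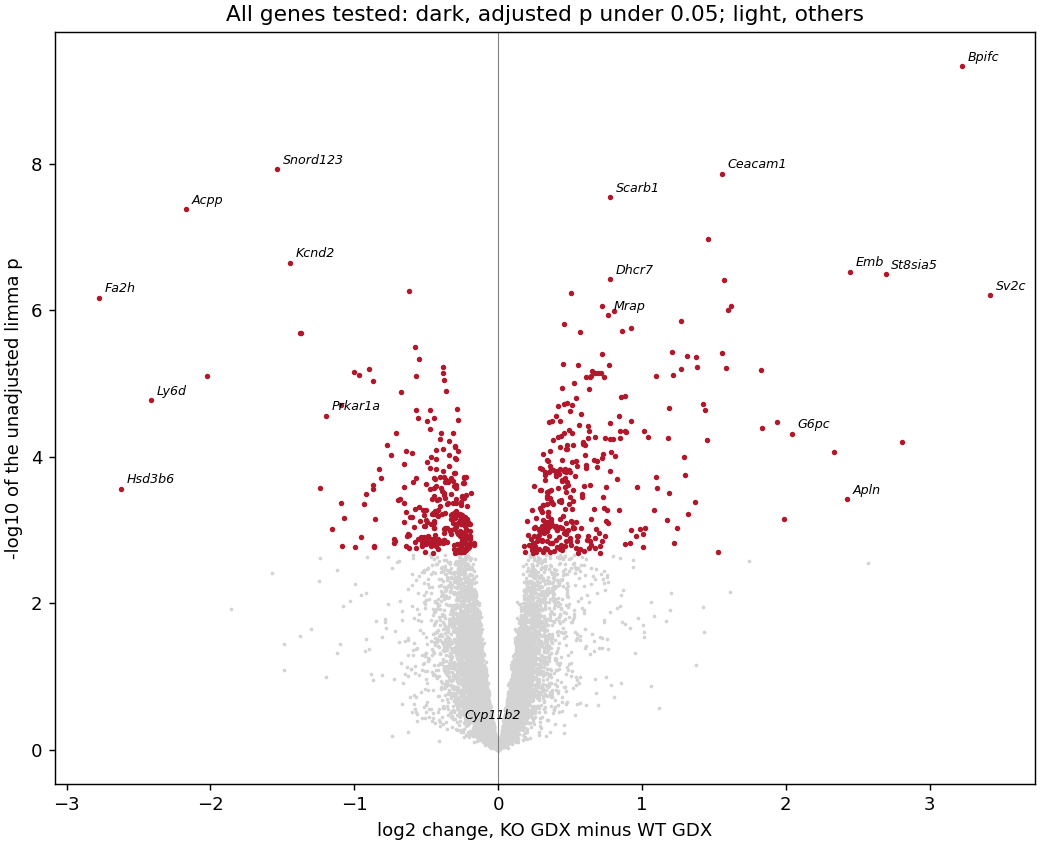
Change of each of the 14411 genes (x axis, log2, KO GDX minus WT GDX) against the minus log10 of its unadjusted limma p (y axis). Dark points are the 609 genes called at an adjusted p under 0.05, 325 to the right of 0 and 284 to the left; Bpifc, Sv2c and St8sia5 lie far to the right, Fa2h, Hsd3b6 and Ly6d far to the left, and Cyp11b2 lies at -0.27 among the genes not called.

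The 25 largest rises and 25 largest falls given below were picked among called genes whose groups did not overlap, predicted symbols aside. In these genes the lack of overlap was therefore set by the choice. Sv2c, a synaptic vesicle glycoprotein, rose most among them. Its log2 levels were 6.47, 8.54, 9.63 and 9.63 in the KO GDX glands, against 5.27, 5.17, 4.90 and 5.25 in the WT GDX glands (3.42 ± 0.49, adjusted p 0.00064). KO GDX array 1 stood well below the other KO GDX arrays and still above all WT GDX arrays. Bpifc, of the lipid-binding BPI fold family, had 6.28, 7.00, 8.10 and 8.18 in the KO GDX glands, against 4.10, 4.16, 3.85 and 4.55 in the WT GDX glands (3.23 ± 0.30, adjusted p 6.72e-06). Its WT GDX values all lay under 5, the level below which signals were taken as too dim to read, so its fold change is uncertain. Likewise dim in WT GDX were the olfactory receptor gene Olfr810 (2.81 ± 0.57, adjusted p 0.00723), the chitinase-like gene Chil3 (2.33 ± 0.48, adjusted p 0.00865), the cadherin gene Cdh17 (1.60 ± 0.24, adjusted p 0.000776) and Shisa6 (1.44 ± 0.27, adjusted p 0.00416), an auxiliary protein of glutamate receptors.

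St8sia5, a sialyltransferase of ganglioside synthesis, had 7.89, 8.03, 9.36 and 9.17 in the KO GDX glands, against 6.46, 5.90, 5.21 and 6.10 in the WT GDX glands (2.69 ± 0.37, adjusted p 0.000505). Emb, the adhesion protein embigin, had 10.79, 11.35, 11.67 and 11.77 in the KO GDX glands, against 8.91, 8.88, 8.18 and 9.82 in the WT GDX glands (2.45 ± 0.33, adjusted p 0.000505). In both genes KO GDX arrays 3 and 4 were the highest and WT GDX array 3 the lowest of all 8 arrays, and the groups did not overlap. A second probe set of each of these genes differed less, at means of 5.50 in KO GDX and 5.35 in WT GDX for St8sia5 and of 5.60 in KO GDX and 5.17 in WT GDX for Emb.

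Apln, which encodes the peptide hormone apelin, split the KO GDX group. Its levels were 5.76, 5.89, 9.19 and 9.05 in the KO GDX glands, against 5.08, 4.42, 5.29 and 5.39 in the WT GDX glands (2.43 ± 0.58, adjusted p 0.0197). Arrays 3 and 4 of KO GDX stood far above arrays 1 and 2, which lay just above the highest WT GDX array, and the call was lost without KO GDX array 3, KO GDX array 4 or WT GDX array 2 (adjusted p up to 0.0951). Ocln, the tight junction protein occludin, had the same division within KO GDX, with 5.52, 6.16, 7.69 and 7.65 in the KO GDX glands, against 5.03, 4.92, 4.96 and 4.77 in the WT GDX glands (1.83 ± 0.36, adjusted p 0.00594), and so did Olfr810, with 5.04, 5.74, 8.04 and 7.67 in the KO GDX glands, against 4.01, 3.45, 3.82 and 3.98 in the WT GDX glands.

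G6pc, the catalytic subunit of glucose-6-phosphatase, which releases free glucose in liver and kidney, had 7.51, 5.76, 7.23 and 7.56 in the KO GDX glands, against 4.75, 4.85, 5.07 and 5.23 in the WT GDX glands (2.04 ± 0.40, adjusted p 0.0063). Here KO GDX array 2 was the low one of its group. Slc7a8, a transporter of neutral amino acids, had 11.30, 11.86, 11.87 and 12.09 in the KO GDX glands, against 10.45, 10.05, 9.69 and 10.64 in the WT GDX glands (1.57 ± 0.22, adjusted p 0.000505), and Slc6a5, a glycine transporter, had 9.41, 9.57, 9.11 and 9.03 in the KO GDX glands, against 8.04, 8.20, 7.77 and 7.60 in the WT GDX glands (1.37 ± 0.23, adjusted p 0.00191). The groups did not overlap in either gene, as the choice of these genes required. The urea transporter gene Slc14a2 (1.59 ± 0.27, adjusted p 0.00206), the transglutaminase gene Tgm3 (1.45 ± 0.29, adjusted p 0.00692), the phospholipase gene Pla1a (1.43 ± 0.26, adjusted p 0.00379) and the glutathione transferase gene Gsta3 (1.39 ± 0.23, adjusted p 0.00206) also rose.

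Rdh1 and Rdh9, retinol dehydrogenase genes of the same family, rose with less certainty. They were the 2 called of 14 tested retinoid metabolism genes, of which 8 lay above 0 (median 0.14). The members of that list that were not called ran from -1.30 to 0.30, and with the replicate block 0 were called. Rdh1 had 8.89, 8.75, 8.98 and 8.78 in the KO GDX glands, against 7.53, 5.55, 6.08 and 8.29 in the WT GDX glands (1.98 ± 0.50, adjusted p 0.0291, and 0.0694 with the replicate block). Rdh9 had 7.47, 7.36, 7.81 and 7.73 in the KO GDX glands, against 6.78, 5.57, 5.97 and 7.08 in the WT GDX glands (1.24 ± 0.32, adjusted p 0.033, and 0.0668 with the block). The KO GDX values lay close together in both genes, while WT GDX arrays 1 and 4 were far above WT GDX arrays 2 and 3 and near the KO GDX level. The call of Rdh1 was lost without KO GDX array 2, 3 or 4 or WT GDX array 2 or 3 (adjusted p up to 0.107), and that of Rdh9 without KO GDX array 3 or 4 or WT GDX array 2 or 3 (adjusted p up to 0.121).

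Ceacam1, a cell adhesion molecule, had 10.75, 11.05, 11.29 and 11.52 in the KO GDX glands, against 9.71, 9.41, 9.31 and 9.95 in the WT GDX glands (1.56 ± 0.18, adjusted p 6.53e-05). The groups were separated by a gap wider than the spread of either. Itga2, the integrin chain of a collagen receptor (1.56 ± 0.25, adjusted p 0.00184), Megf10, an engulfment receptor (1.94 ± 0.37, adjusted p 0.00517), Nxph1, a ligand of neurexins (1.83 ± 0.31, adjusted p 0.00206), Shank2, a synaptic scaffold protein (1.46 ± 0.19, adjusted p 0.000252), the histone gene H4c9 (1.62 ± 0.24, adjusted p 0.000738) and Fam189a2 (1.32 ± 0.33, adjusted p 0.0265) rose as well. Fam189a2 lost its call without KO GDX array 2 or 3 or WT GDX array 1 or 2 (adjusted p up to 0.0821). Among the 25 largest rises, which ran from 3.42 down to 1.32, KO GDX array 1 was the lowest KO GDX array in 21 genes, and WT GDX array 1 or 4 was the WT GDX array nearest to KO GDX in 23. Of these 25 genes, 22 kept their call with any 1 of the 8 arrays left out, 1 (Rdh1) lost it with the replicate block, and 9 were called with the GDX arrays alone.

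**Figure D2:**
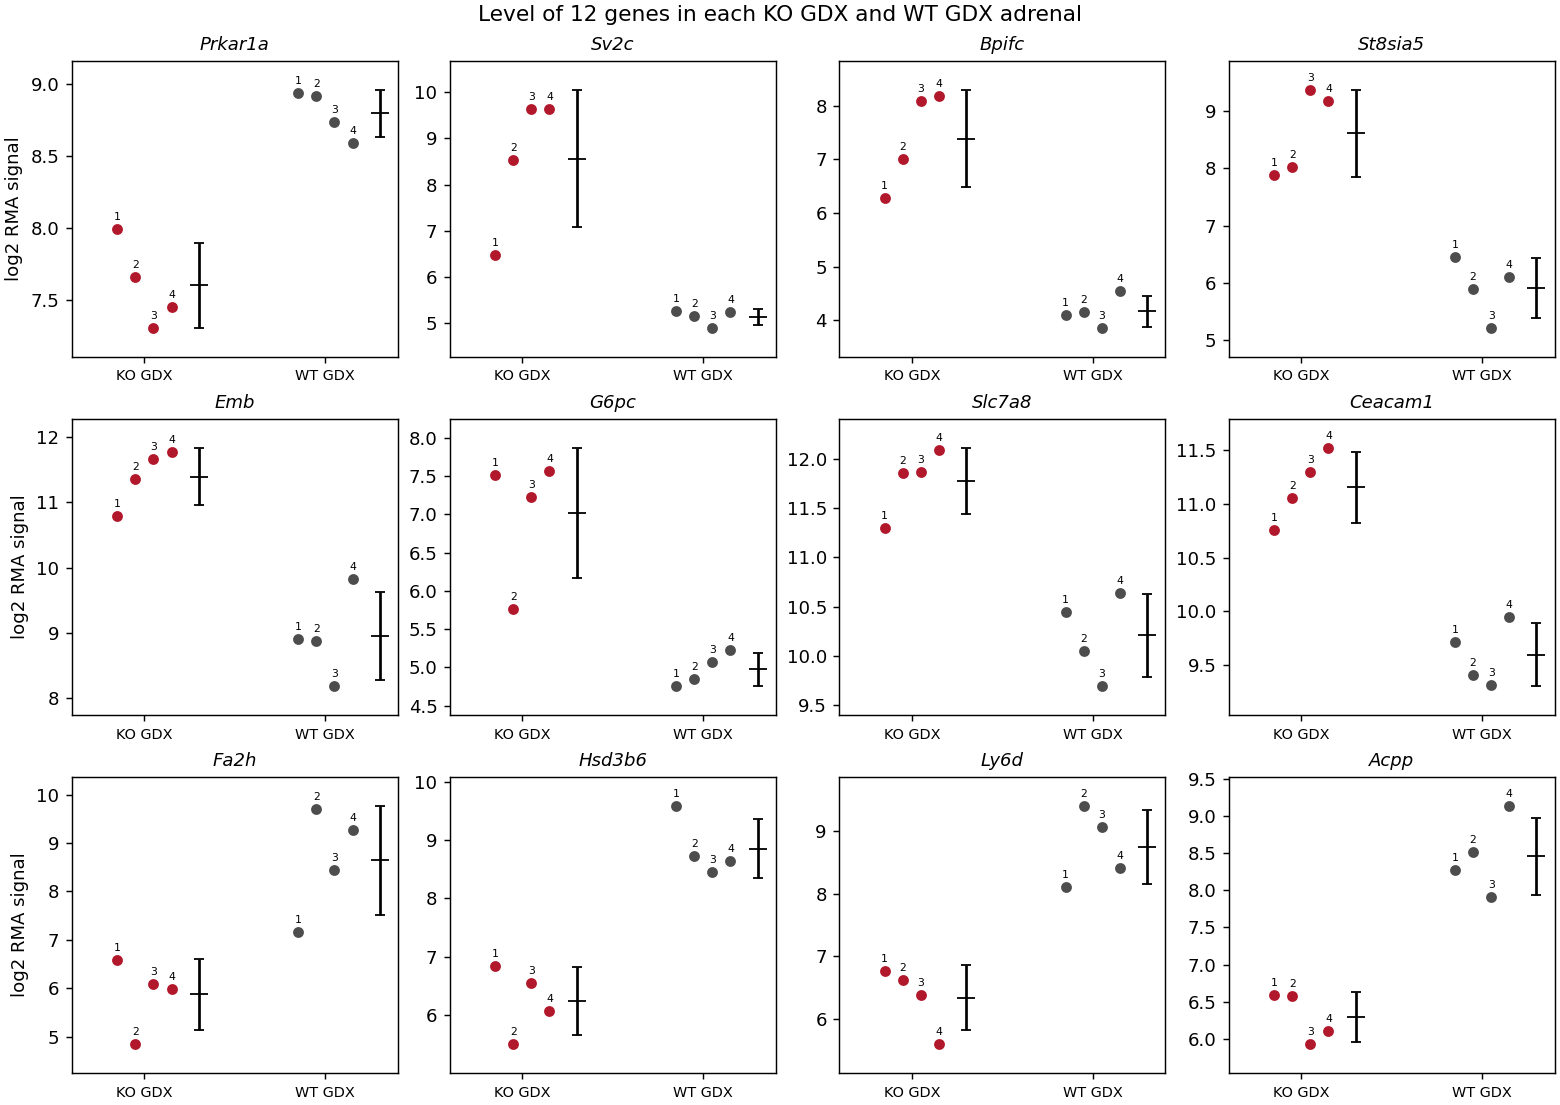
Log2 RMA signal (y axis) of 12 genes in each KO GDX (left) and WT GDX (right) adrenal; points carry the replicate number, and the bar beside each group is its mean ± SD (n = 4). Prkar1a, Fa2h, Hsd3b6, Ly6d and Acpp are lower in KO GDX and the other 7 genes higher. The groups do not overlap, as the choice of these genes required, and KO GDX array 1 lies nearest to WT GDX in most panels.

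The falls were led by Fa2h, fatty acid 2-hydroxylase, which makes the hydroxylated fatty acids of sphingolipids. Its levels were 6.58, 4.84, 6.10 and 5.98 in the KO GDX glands, against 7.15, 9.71, 8.45 and 9.27 in the WT GDX glands (-2.77 ± 0.40, adjusted p 0.000649). The WT GDX animals were spread over more than 2 log2 units, with the animal without Cre the lowest, and the gap between the highest KO GDX and the lowest WT GDX array was small. Acpp, prostatic acid phosphatase, which also removes phosphate from extracellular AMP, had 6.58, 6.57, 5.92 and 6.10 in the KO GDX glands, against 8.27, 8.52, 7.91 and 9.14 in the WT GDX glands (-2.17 ± 0.26, adjusted p 0.000119). The gap between the groups was wider than the spread within either.

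Ly6d, a cell surface protein of the Ly6 family, had 6.76, 6.62, 6.38 and 5.59 in the KO GDX glands, against 8.11, 9.41, 9.07 and 8.42 in the WT GDX glands (-2.41 ± 0.44, adjusted p 0.00356). The WT GDX animal without Cre was the lowest of its group and was still above all KO GDX arrays. Kcnd2, a voltage-gated potassium channel, had 6.06, 5.71, 5.45 and 5.37 in the KO GDX glands, against 7.13, 7.30, 6.96 and 6.97 in the WT GDX glands (-1.44 ± 0.19, adjusted p 0.000462). Snord123, a small nucleolar RNA, had 6.15, 5.93, 5.88 and 5.31 in the KO GDX glands, against 7.16, 7.25, 7.69 and 7.32 in the WT GDX glands (-1.54 ± 0.17, adjusted p 6.53e-05). In none of these 3 genes did the groups overlap, as the choice of the falls required.

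The adhesion and guidance genes Cdh6, a cadherin (-1.38 ± 0.21, adjusted p 0.0011), Itga6, an integrin chain of laminin receptors (-1.09 ± 0.20, adjusted p 0.00379), and Ntn4, a netrin (-0.90 ± 0.15, adjusted p 0.00206), fell together with Nrep (-1.37 ± 0.21, adjusted p 0.0011), Tbc1d4, a regulator of glucose transporter traffic (-1.0 ± 0.17, adjusted p 0.00206), Sowahc (-0.75 ± 0.16, adjusted p 0.00912) and the orphan receptor gene Gpr141b (-0.87 ± 0.15, adjusted p 0.00223). All KO GDX values of Gpr141b, and of Ms4a14 below, lay under the dim level of 5, so the size of these falls is not certain. Further falls were each lost when single arrays were left out. They were those of Tmem178 (-1.07 ± 0.27, adjusted p 0.0287, up to 0.111), Ms4a14 (-1.15 ± 0.30, adjusted p 0.0333, up to 0.129), the gliomedin gene Gldn (-0.93 ± 0.22, adjusted p 0.0213, up to 0.0888), the enolase gene Eno3 (-0.92 ± 0.21, adjusted p 0.0179, up to 0.0629), Ecrg4 (-0.87 ± 0.20, adjusted p 0.0161, up to 0.08), Eps8 (-0.83 ± 0.18, adjusted p 0.0119, up to 0.0542), Sbspon (-0.81 ± 0.18, adjusted p 0.0135, up to 0.0603), Snora16a (-0.87 ± 0.20, adjusted p 0.0154, up to 0.0603) and Trim34a (-0.73 ± 0.20, adjusted p 0.0411, up to 0.156). Snora16a lost its call without WT GDX array 3, Eno3 without KO GDX array 4 or WT GDX array 4, Eps8 without KO GDX array 4 or WT GDX array 2, Sbspon without KO GDX array 3 or WT GDX array 3, Ecrg4 without KO GDX array 2 or 4 or WT GDX array 2, and Gldn without KO GDX array 3 or 4 or WT GDX array 1. Ms4a14 lost it without KO GDX array 3 or 4 or WT GDX array 2 or 3, Trim34a without KO GDX array 1 or 4 or WT GDX array 1, 2 or 3, and Tmem178 without KO GDX array 2, 3 or 4 or WT GDX array 2, 3 or 4. With the replicate block Gldn also lost it (adjusted p 0.0786). Among the 25 largest falls, from -2.77 to -0.73, KO GDX array 1 was the least changed KO GDX array in 17, and WT GDX array 1 or 4 the nearest control in 17.

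Next come the gene lists, 36 of them with 508 distinct symbols, of which 403 were tested and 34 called. Beside them stand the 4.23% of all genes called and the median of -0.01. The lists were chosen with earlier results of these data known, so a larger share of calls in them is not a result. Of the 7 tested subunits and inhibitors of protein kinase A, Prkar1a was the 1 that changed, and the other 6 lay between -0.00 and 0.29. None of 7 adenylyl cyclases, which make cyclic AMP, was called, and all 7 lay below 0 (median -0.17). None of 14 phosphodiesterases, which degrade it, was called either (-0.27 to 0.22, median 0.07).

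The targets of CREB, the transcription factor that protein kinase A phosphorylates, and the immediate early genes gave 0 calls among 17 (median 0.25). Their mean level was 8.32, 7.19, 7.16 and 7.00 in KO GDX arrays 1 to 4, against 6.98, 7.38, 7.57 and 7.21 in WT GDX arrays 1 to 4. Array 1 of KO GDX stood above the other 7 arrays, and without it the rest of KO GDX lay within the WT GDX range.

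The cortex kept its steroid-making genes at high levels, with a rise in 3 of 14 tested members of the ACTH receptor and steroid synthesis list (median 0.09). Scarb1, the receptor for high-density lipoprotein cholesterol, had 12.05, 12.46, 12.53 and 12.49 in the KO GDX glands, against 11.51, 11.56, 11.53 and 11.82 in the WT GDX glands (0.78 ± 0.09, adjusted p 0.000102). Mrap, which carries the ACTH receptor to the cell surface, had 10.40, 10.51, 10.80 and 10.79 in the KO GDX glands, against 9.84, 9.68, 9.80 and 10.12 in the WT GDX glands (0.76 ± 0.11, adjusted p 0.000838). In both genes every KO GDX array stood above every WT GDX array.

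Fdx1, the ferredoxin that hands electrons to the mitochondrial steroid hydroxylases, rose as well (0.45 ± 0.11, adjusted p 0.0273, and 0.0576 with the replicate block). Its call was lost without KO GDX array 1, 3 or 4 or WT GDX array 1, 2 or 3 (adjusted p up to 0.0902). The other 11 members were not called and lay between -0.17 and 0.15; Star, which moves cholesterol into mitochondria, was near the top of the array's range in both groups, with 13.11, 13.08, 13.11 and 13.11 in the KO GDX glands, against 13.01, 12.93, 12.95 and 13.01 in the WT GDX glands (0.13 ± 0.05, adjusted p 0.111).

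Cholesterol synthesis genes gave 2 rises among 16 tested. Dhcr7, the last reductase of the pathway, had 11.00, 11.43, 11.32 and 11.41 in the KO GDX glands, against 10.52, 10.52, 10.21 and 10.79 in the WT GDX glands (0.78 ± 0.11, adjusted p 0.000505), and Mvk, mevalonate kinase, had 6.93, 7.20, 6.96 and 7.15 in the KO GDX glands, against 6.51, 6.68, 6.74 and 6.76 in the WT GDX glands (0.38 ± 0.08, adjusted p 0.00692). Both were higher in all KO GDX arrays than in any WT GDX array. The list's median was 0.37, 14 of its 16 members lay above 0, and its members that were not called ran from -0.23 to 0.84. No member of the 15 tested for cholesterol uptake and sterol sensing was called (median 0.04).

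The zona glomerulosa, the zone in which Cre is active, showed an uneven picture. Hsd3b6, the 3 beta-hydroxysteroid dehydrogenase of the mouse zona glomerulosa, had 6.83, 5.49, 6.55 and 6.06 in the KO GDX glands, against 9.59, 8.73, 8.46 and 8.65 in the WT GDX glands (-2.62 ± 0.60, adjusted p 0.0162). It was lower in all KO GDX arrays by more than the width of either group, and its call was lost without KO GDX array 2 or 4 (adjusted p up to 0.0581). Dab2, an endocytic adaptor protein enriched in that zone, had 11.14, 10.81, 10.79 and 10.76 in the KO GDX glands, against 11.28, 11.31, 11.27 and 11.17 in the WT GDX glands (-0.38 ± 0.08, adjusted p 0.0122), with KO GDX array 1 nearest to WT GDX and the call lost without KO GDX array 3 or 4 (up to 0.0591).

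Cyp11b2, by contrast, was not called, with 10.55, 9.89, 10.37 and 10.13 in the KO GDX glands, against 11.42, 10.35, 9.80 and 10.46 in the WT GDX glands (-0.27 ± 0.36, adjusted p 0.737). The WT GDX animal without Cre, which has both Cyp11b2 alleles without the insertion, was the highest of the 8, and the other WT GDX animals overlapped the KO GDX ones. Without that animal the change was 0.03. Of 13 tested markers of the zone 2 fell, 5 with the replicate block, and the median was -0.27. The 3 that were not called in the fit over 24 arrays and passed with the block were Vsnl1, a neuronal calcium sensor (-1.24 ± 0.40, adjusted p 0.0777, and 0.0405 with the block), Kcnk9, a potassium leak channel (-0.63 ± 0.27, adjusted p 0.194, and 0.0311 with the block), and Cacna1h, a calcium channel of aldosterone-making cells (-0.51 ± 0.16, adjusted p 0.065, and 0.0341 with the block). In whole glands fewer cells of a type and less RNA per cell cannot be told apart.

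Genes of the X-zone and of gonadal-like cells gave no calls. The X-zone marker Akr1c18, a 20 alpha-hydroxysteroid dehydrogenase that breaks down progesterone, was high in all 8 glands. It had 12.62, 12.76, 12.68 and 12.75 in the KO GDX glands, against 12.35, 12.43, 12.04 and 12.66 in the WT GDX glands (0.33 ± 0.73, adjusted p 0.859). That standard error rests on all 24 arrays, while the SD was 0.07 in KO GDX and 0.25 in WT GDX. With the 8 GDX arrays fitted alone its adjusted p was 0.215. In intact males its KO levels were 10.90, 6.57, 6.36 and 10.96, with a mean of 8.70, against a mean of 4.26 in WT. The rise in intact males was called (4.43 ± 0.73, adjusted p 0.0103), and its difference from the change in GDX males was not (adjusted p 0.181). None of 6 tested X-zone markers was called (median 0.11), and none of 8 tested gonadal-like genes (-0.08 to 0.22).

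Of 6 tested genes of androgen synthesis 1 rose, Cyb5a, the cytochrome b5 that aids the lyase reaction of CYP17A1, with 8.33, 8.58, 8.71 and 8.71 in the KO GDX glands, against 7.79, 7.97, 8.08 and 8.12 in the WT GDX glands (0.59 ± 0.12, adjusted p 0.00755). Cyp17a1 itself, the enzyme that makes the androgen precursors, had 6.81, 3.91, 4.15 and 4.52 in the KO GDX glands, against 7.64, 4.34, 4.89 and 4.63 in the WT GDX glands (-0.53 ± 0.57, adjusted p 0.675). Array 1 was the high one in both groups and the other 6 arrays lay under 5.

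Among 14 adrenocortical transcription factors Zbtb16 alone was called, and it also stands in the lists of glucocorticoid and androgen response. Zbtb16, a zinc finger repressor that steroid hormones induce, had 8.11, 8.43, 8.19 and 8.41 in the KO GDX glands, against 7.30, 7.32, 7.43 and 7.64 in the WT GDX glands (0.86 ± 0.13, adjusted p 0.0011). All KO GDX arrays were above all WT GDX arrays. In the glucocorticoid response list, 3 of 15 rose (median 0.27, 13 of 15 above 0): Zbtb16, the metallothionein gene Mt1 (0.63 ± 0.12, adjusted p 0.00677) and the stress gene Ddit4 (0.54 ± 0.15, adjusted p 0.0445, and 0.116 with the block). Ddit4 lost its call without any 1 of 7 arrays, WT GDX array 4 aside (adjusted p up to 0.147). The mean level of the list was 8.15, 8.18, 8.21 and 8.02 in KO GDX arrays 1 to 4, against 7.82, 7.83, 7.98 and 7.69 in WT GDX arrays 1 to 4, with no overlap.

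In the androgen response list 2 of 6 tested members rose, Zbtb16 and the small GTPase gene Rhou (0.65 ± 0.11, adjusted p 0.00206), and 1 fell, Acpp. The list holds genes that androgens induce in male tissues, but the mean of Acpp was lower in WT intact males (5.39) than in WT GDX (8.46). The glutathione and oxidative stress list had 2 rises among 14, the sulfiredoxin gene Srxn1 (0.54 ± 0.12, adjusted p 0.0101) and the thioredoxin reductase gene Txnrd1 (0.33 ± 0.08, adjusted p 0.0301, and 0.0559 with the block). Txnrd1 lost its call without KO GDX array 3 or 4 or WT GDX array 1, 3 or 4 (up to 0.129). Cat, catalase, passed with the block (0.42 ± 0.12, adjusted p 0.0539, and 0.0486 with the block). Of 13 glucose handling genes G6pc was the 1 called, and the others ran from -0.34 to 0.36.

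Potassium channels gave 1 rise and 2 falls among 19 tested. Kcnk5, a leak channel, had 7.28, 7.35, 7.67 and 7.66 in the KO GDX glands, against 6.65, 6.32, 6.51 and 7.07 in the WT GDX glands (0.85 ± 0.15, adjusted p 0.00331), above all WT GDX arrays in all 4 KO GDX arrays. Kcnn2, a calcium-activated channel, had 9.21, 8.75, 8.80 and 8.89 in the KO GDX glands, against 9.39, 9.43, 9.35 and 9.39 in the WT GDX glands (-0.48 ± 0.13, adjusted p 0.0413, and 0.0853 with the block), and its call was lost without KO GDX array 2, 3 or 4 or any 1 WT GDX array (up to 0.135). Kcnma1, a large-conductance channel (-0.33 ± 0.10, adjusted p 0.0672), and Kcnk9 passed with the block (adjusted p 0.034 for Kcnma1), so that with it 1 channel was higher and 3 lower. A second probe set of Kcnma1 lay the other way, at dim means of 4.13 in KO GDX and 3.90 in WT GDX. Of 19 ganglioside and sialyltransferase genes St8sia5 rose and Fa2h fell, and Ugcg, glucosylceramide synthase, passed with the block (-0.42 ± 0.15, adjusted p 0.122, and 0.0331 with the block).

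Signalling and growth lists held few calls. Bmp4, a bone morphogenetic protein, rose (0.55 ± 0.09, adjusted p 0.00206) as the 1 called of 20 inhibin, activin and BMP genes, and Rspo3, the capsular R-spondin that sustains WNT signalling in the zona glomerulosa, fell (-0.47 ± 0.13, adjusted p 0.0432) as the 1 called of 15 capsule and hedgehog genes. Rspo3 had 9.0, 8.37, 8.34 and 8.61 in the KO GDX glands, against 9.24, 9.05, 9.06 and 8.85 in the WT GDX glands, with KO GDX array 1 inside the WT GDX range, and lost its call without KO GDX array 2, 3 or 4 or WT GDX array 1, 2 or 3 (up to 0.168). No WNT target was called among 12 (-0.12 to 0.45), with Apcdd1, an inhibitor of WNT signalling, passing under the block (0.45 ± 0.14, adjusted p 0.0704, and 0.0206 with the block). None of 17 clock genes and none of 17 proliferation genes was called (medians 0.04 and -0.02); the mitotic kinase gene Ttk passed with the block (0.44 ± 0.16, adjusted p 0.123, and 0.0288 with the block).

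**Figure D3:**
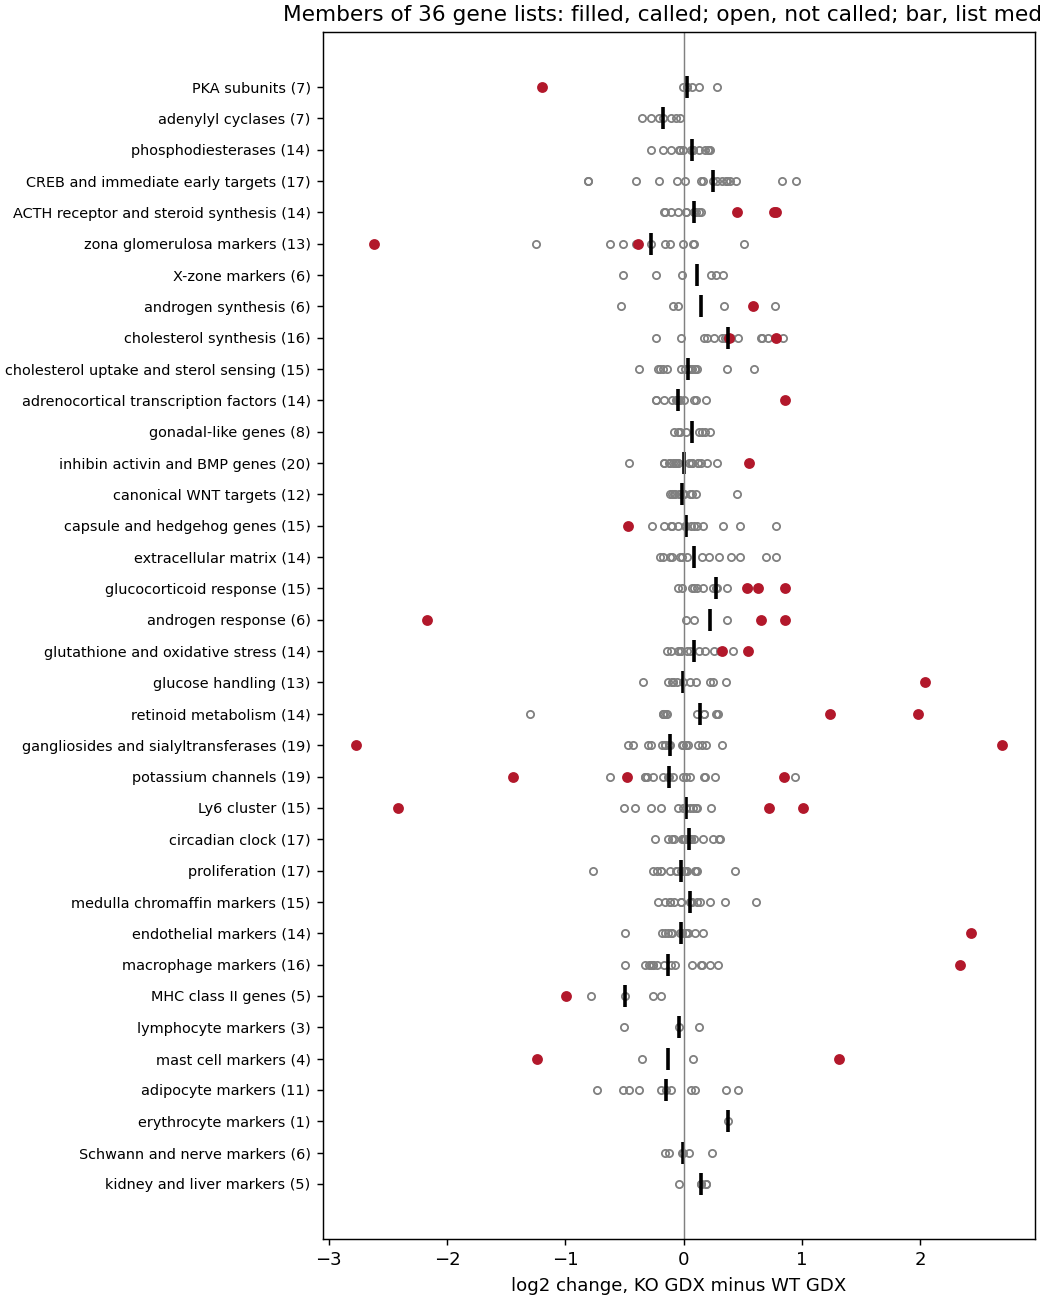
Change of each tested member (x axis, log2, KO GDX minus WT GDX) of the 36 gene lists (rows, with the number tested). Filled points are called members, open points are not called, and the upright bar is the list median; most members lie near 0, and each of 20 lists holds 1 to 3 called members.

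Immune and vascular markers changed gene by gene. H2-Aa, an MHC class II chain, had 7.77, 7.28, 7.55 and 6.88 in the KO GDX glands, against 8.08, 8.67, 8.56 and 8.15 in the WT GDX glands (-1.0 ± 0.28, adjusted p 0.0434, and 0.104 with the block). Its call was lost without KO GDX array 2, 3 or 4 or WT GDX array 2, 3 or 4 (up to 0.161). All 5 tested class II genes lay below 0 (median -0.50), with H2-Aa the 1 called; H2-Ab1, the partner chain, was at -0.79 ± 0.30, adjusted p 0.145. The mean of these genes was 7.44, 7.09, 7.34 and 6.95 in KO GDX arrays 1 to 4, against 7.61, 7.92, 7.85 and 7.63 in WT GDX arrays 1 to 4, with no overlap.

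Of 11 listed mast cell markers only 4 were tested, of which 1 rose and 1 fell. The tested members not called ran from -0.35 to 0.08. Hdc, histidine decarboxylase, which makes histamine, had 6.88, 7.54, 7.52 and 7.41 in the KO GDX glands, against 6.01, 5.85, 5.70 and 6.54 in the WT GDX glands (1.31 ± 0.21, adjusted p 0.00187), and Cpa3, the mast cell carboxypeptidase, had 6.61, 6.78, 6.03 and 5.76 in the KO GDX glands, against 7.22, 7.82, 8.07 and 7.02 in the WT GDX glands (-1.24 ± 0.28, adjusted p 0.0161). The first was above and the second below WT GDX in all KO GDX arrays, and Cpa3 lost its call without KO GDX array 3 or 4 or WT GDX array 2 or 3 (up to 0.0783). Of 16 macrophage markers Chil3 was the 1 called and the other 15 ran from -0.50 to 0.29. Of 14 endothelial markers Apln was the 1 called and the other 13 ran from -0.49 to 0.17.

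Markers of other cell types differed more between single arrays than between the groups. The adipocyte mean was 9.04, 9.01, 9.57 and 9.03 in KO GDX arrays 1 to 4, against 8.48, 9.59, 10.48 and 8.67 in WT GDX arrays 1 to 4, with 0 of 11 called. The medulla chromaffin mean was 9.52, 9.10, 9.18 and 9.23 in KO GDX, against 9.59, 8.96, 8.88 and 9.36 in WT GDX, with 0 of 15 called. Array 1 of each group had most medulla marker signal in its group, and WT GDX array 3 most adipocyte marker signal.

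The extracellular matrix mean was 8.19, 9.62, 8.25 and 7.91 in KO GDX, against 8.32, 8.39, 8.43 and 8.14 in WT GDX, with 0 of 14 called. The proliferation mean was 5.94, 6.74, 5.97 and 5.96 in KO GDX, against 6.30, 6.35, 6.07 and 6.14 in WT GDX. KO GDX array 2 was the highest of the 8 arrays in both. No member of the lymphocyte list (3 tested), the Schwann and nerve list (6), the kidney and liver list (5) or the erythrocyte list (1) was called. The part that these differences between arrays have in the calls above was not tested beyond covariate fits, in which the count was 751 with the medulla mean and 698 with the adipocyte mean.

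**Figure D4:**
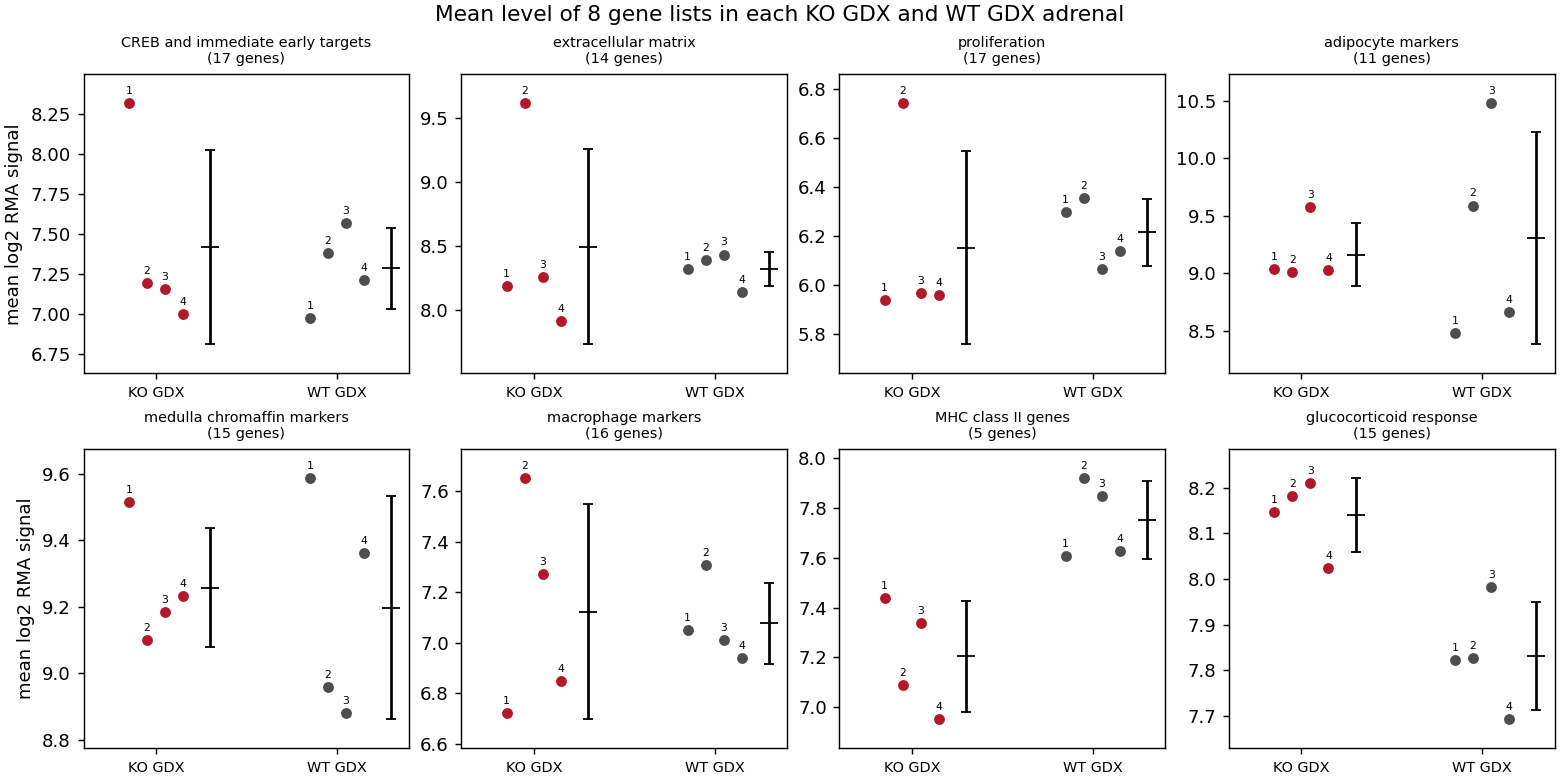
Mean log2 RMA signal (y axis) of 8 gene lists in each KO GDX (left) and WT GDX (right) adrenal; points carry the replicate number and the bar is the mean ± SD (n = 4). The MHC class II and glucocorticoid response means do not overlap between the groups, while KO GDX array 1 is high in immediate early genes, KO GDX array 2 in matrix and proliferation genes, and WT GDX array 3 in adipocyte markers.

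Genes close to the engineered loci were examined because the WT GDX animals differ in their Cre and floxed alleles. Within 5 Mb of Prkar1a (chr11:109649023-109669663, GRCm38.p6) 7 of 69 tested genes were called (10.1%, against 4.23% of all genes), Prkar1a included. Cep112 (-0.51 ± 0.13, adjusted p 0.0325), Tanc2 (-0.30 ± 0.09, adjusted p 0.0449) and Snord104 (-0.48 ± 0.10, adjusted p 0.0119) fell, and Milr1 (0.62 ± 0.17, adjusted p 0.0399), Prkca, a protein kinase C (0.24 ± 0.07, adjusted p 0.0414), and the zinc transporter gene Slc39a11 (0.34 ± 0.08, adjusted p 0.0172) rose. Each of these 6 calls was lost without 1 or more single arrays (adjusted p up to 0.12, 0.159, 0.0508, 0.166, 0.161 and 0.0824 in that order), and with the block Milr1 (adjusted p 0.0878) and Prkca (0.111) were not called.

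Within 5 Mb of Cyp11b2 (chr15:74850618-74856231, GRCm38.p6) 6 of 143 tested genes were called (4.20%). Of the 15 tested genes of the Ly6 cluster and its surroundings, Cyp11b2 and Cyp11b1 included, Ly6d fell as described, and Ly6m (1.01 ± 0.28, adjusted p 0.0437) and Top1mt, the mitochondrial topoisomerase (0.72 ± 0.15, adjusted p 0.00978), rose. Ly6m had 6.69, 6.41, 7.29 and 7.70 in the KO GDX glands, against 5.88, 5.57, 5.90 and 6.72 in the WT GDX glands, with WT GDX array 4 inside the KO GDX range and the call lost without KO GDX array 3 or 4 or WT GDX array 1, 2 or 3 (up to 0.174). The other 12 were not called (-0.51 to 0.24). Farther out, Pla2g6, a phospholipase, rose (0.36 ± 0.08, adjusted p 0.0171, and 0.0664 with the block), and Lgals1, a galectin (-0.50 ± 0.14, adjusted p 0.0422, and 0.0619 with the block), and Chrac1 (-0.26 ± 0.06, adjusted p 0.0221, and 0.087 with the block) fell; each lost its call without single arrays (up to 0.0641, 0.168 and 0.0778 in that order).

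Because CREB binds the cyclic AMP response element, the promoters (RefSeq, GRCm38.p6, 250 bases before to 50 after each start) were searched for TGACGTCA, which reads the same on both strands, and for its first 5 letters, TGACG, on either strand. The full element stood in 7 of 254 genes with a promoter among the rises (2.76%), in 5 of 210 among the falls (2.38%) and in 365 of 11172 among all tested genes (3.27%). TGACG stood on either strand in 32.7% of the rises, 29.5% of the falls and 33.0% of all tested genes. The shares in the called genes were therefore no larger than that of all genes. A match is a run of letters and not evidence of binding. Shown here are the promoters that hold the full element for Prkar1a, for H2-Aa, the largest fall with it besides Prkar1a, and for Vsig8, the largest rise with it; Vsig8 and the choice of these promoters were taken after the values were seen (Vsig8 0.68 ± 0.18, adjusted p 0.0389). Prkar1a has a second listed promoter, of a start further upstream (chr11:109650612-109650911), which overlaps the one shown and holds the same element. Each is written 5′ to 3′ on the strand of the gene, with the element in capitals.
Prkar1a, chr11:109650699-109650998, + strand: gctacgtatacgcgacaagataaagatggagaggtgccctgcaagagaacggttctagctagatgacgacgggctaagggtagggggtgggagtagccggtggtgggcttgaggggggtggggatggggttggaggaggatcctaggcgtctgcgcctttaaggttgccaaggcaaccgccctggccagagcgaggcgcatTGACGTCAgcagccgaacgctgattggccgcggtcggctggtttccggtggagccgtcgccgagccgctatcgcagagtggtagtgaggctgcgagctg
H2-Aa, chr17:34287774-34288073, - strand: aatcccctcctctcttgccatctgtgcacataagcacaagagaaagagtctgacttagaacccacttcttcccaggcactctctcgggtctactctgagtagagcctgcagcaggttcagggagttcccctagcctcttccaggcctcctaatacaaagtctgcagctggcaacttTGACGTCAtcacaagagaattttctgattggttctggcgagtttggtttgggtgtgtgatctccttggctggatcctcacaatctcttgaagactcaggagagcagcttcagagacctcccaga
Vsig8, chr1:172559656-172559955, + strand: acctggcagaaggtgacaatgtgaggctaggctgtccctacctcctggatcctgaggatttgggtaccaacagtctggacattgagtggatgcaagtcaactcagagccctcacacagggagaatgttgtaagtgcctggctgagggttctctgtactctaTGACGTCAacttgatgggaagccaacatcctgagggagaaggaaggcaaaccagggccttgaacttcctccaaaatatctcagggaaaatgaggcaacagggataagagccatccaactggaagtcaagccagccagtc

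The knockout effect after gonadectomy was set against that in the other animals. Prkar1a itself changed by -1.19 in KO GDX and by -1.43 in KO females (adjusted p 5.83e-05). In KO intact males it stood at -0.92 and was not called (adjusted p 0.16), with KO levels of 6.89, 8.08, 8.47 and 8.13. The difference of its change in GDX males was not called against intact males (adjusted p 0.85) or females (adjusted p 0.756). Of the 325 genes higher in KO GDX, 262 (80.6%) were also called higher in KO females, where 13.9% of all genes were called higher (2001, of which the 262 are 13.1%). Of the 284 lower genes, 205 (72.2%) were also called lower in KO females, where 18.7% of all genes were called lower (2693, of which the 205 are 7.61%). In intact males few genes were called, 10 higher (0.0694%) and 6 lower (0.0416%), and 7 and 3 of these were called in the same direction in KO GDX. The 3 comparisons share no arrays, and they share 1 estimate of the spread. As their controls differ in Cre and floxed alleles, genotype of the controls and sex or surgery cannot be told apart in the differences below.

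The leading rises and falls of KO GDX were mostly present in females too. Among the 25 largest rises 23 were called in the same direction in KO females and 2, G6pc and Slc6a5, in intact males. Sv2c had a change of 3.42 in KO GDX, 0.69 in KO intact males and 4.51 in KO females. St8sia5 had 2.69 in KO GDX, 0.00 in KO intact males and 3.69 in KO females. The difference of the change between GDX and intact males was not called for Sv2c or St8sia5. The rises without a call in females were Rdh1 (1.29 there) and Fam189a2 (0.22). Among the 25 largest falls 21 were called in females and 1, Kcnd2, in intact males, and Fa2h, Acpp, Ms4a14 and Trim34a were not called lower in females.

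**Figure D5:**
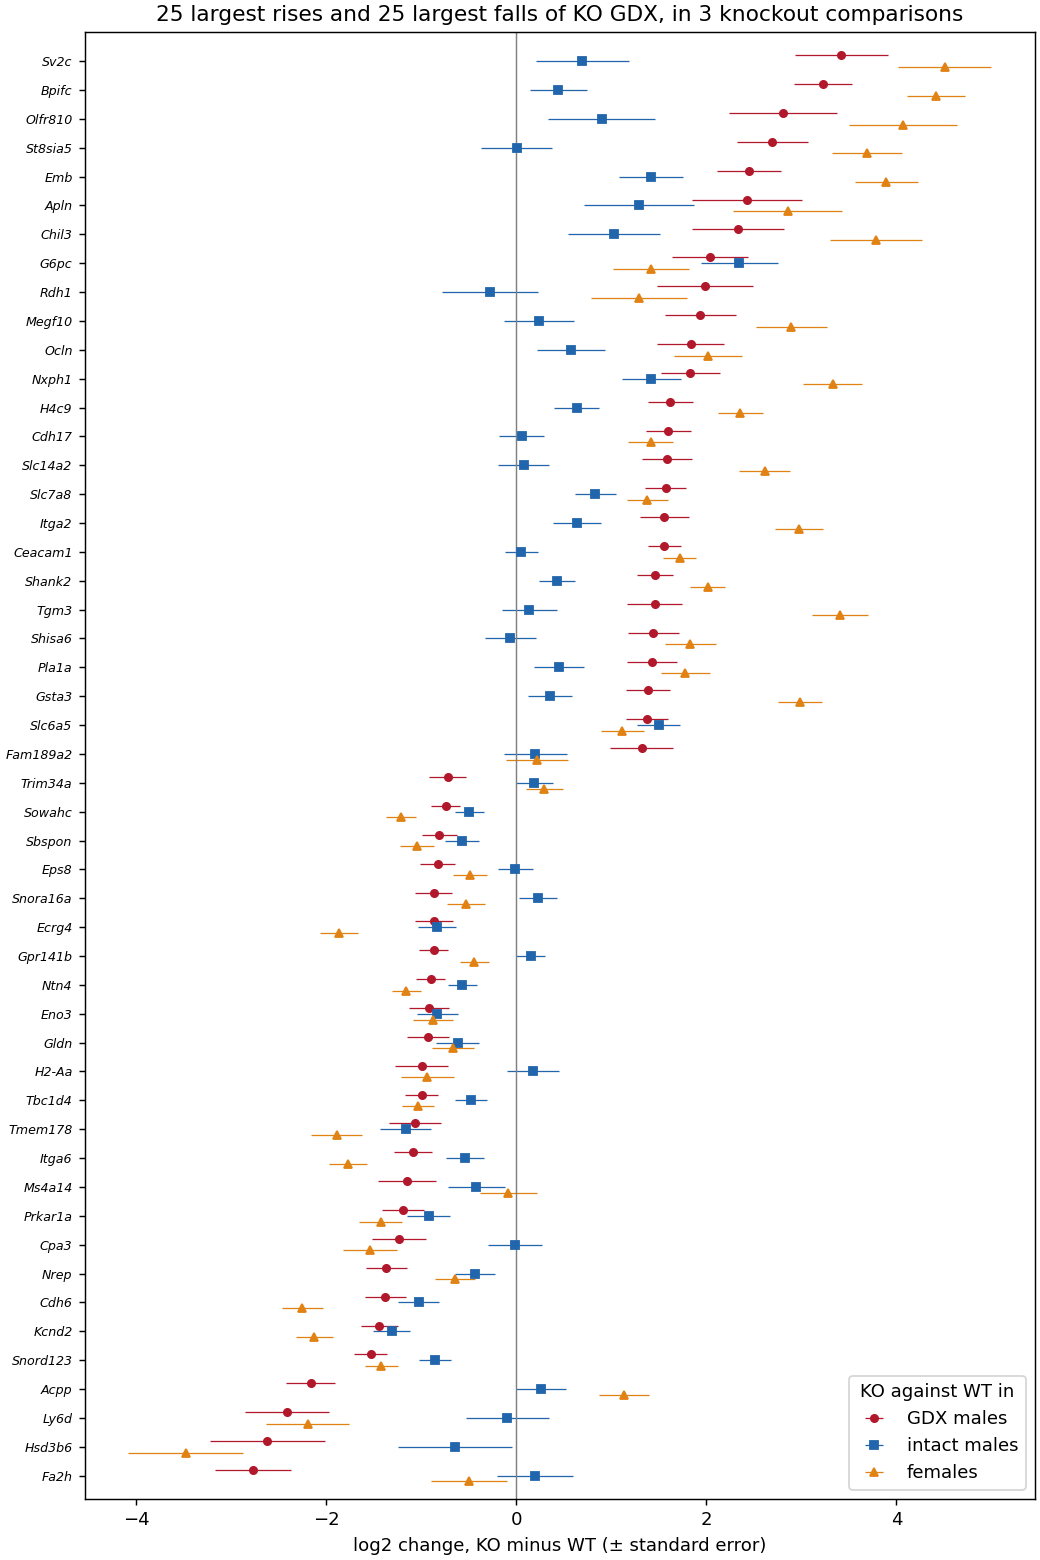
Change of the 25 largest rises and 25 largest falls of KO GDX (log2, KO minus WT, ± standard error) in GDX males, intact males and females. Most rises and falls are as large or larger in females and nearer to 0 in intact males; Acpp is at -2.17 in GDX males, 0.26 in intact males and 1.13 in females.

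The difference of the effect between GDX and intact males was itself tested and was called for 4 genes (0.0278%, 1361 at an unadjusted p under 0.05). They were Acpp (-2.42 ± 0.37, adjusted p 0.0117), Bpifc (2.79 ± 0.43, adjusted p 0.0117), Ceacam1 (1.50 ± 0.25, adjusted p 0.02) and Eda (0.64 ± 0.11, adjusted p 0.02), the gene of the signalling protein ectodysplasin A. Acpp and Bpifc were called whichever of the 8 GDX arrays was left out. Ceacam1 was lost without KO GDX array 3 or 4 or WT GDX array 2 or 3, and Eda without KO GDX array 3 or 4 or WT GDX array 2 (adjusted p up to 0.0793 in both) and with the block (adjusted p 0.0858). Both were also lost with the mean of the medulla markers as a covariate (adjusted p 0.0512 in both), with which Acpp and Bpifc were still called (0.039 in both). The number of such genes was 88 without KO GDX array 1, 30 without WT GDX array 1 and 2 without KO GDX array 3, KO GDX array 4 or WT GDX array 2.

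Eda had 6.97, 7.09, 7.23 and 7.25 in the KO GDX glands, against 6.68, 6.58, 6.78 and 6.70 in the WT GDX glands (0.45 ± 0.08, adjusted p 0.00206), with a change of -0.19 in intact males and 1.11 in females. Ceacam1 had a change of 1.56 in KO GDX, 0.05 in KO intact males and 1.72 in KO females. Acpp lay at means of 6.29 in KO GDX and 8.46 in WT GDX, at 5.64 in KO and 5.39 in WT intact males, and at 7.41 in KO and 6.28 in WT females. It fell in KO GDX males and rose in KO females (adjusted p 0.0022 in females).

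Against females the difference was called for 477 genes (3.31%, 2715 at an unadjusted p under 0.05), 63 of them also called in KO GDX. In 445 of the 477 the change was larger in females, and in 167 the 2 changes had opposite signs. The count was 236 without KO GDX array 1, 309 without WT GDX array 2 and 290 without WT GDX array 4. It was 67 with the mean of the medulla markers as a covariate, and 25 of the 34 genes of this contrast that are named here or in the closing section were then not called.

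The genes with the greatest difference were mainly ones that changed in females and were not called in KO GDX. Spink8, a protease inhibitor gene, stood at a change of 0.35 in KO GDX and 3.55 in KO females (difference -3.21 ± 0.56, adjusted p 0.00514). Ptprz1, a receptor phosphatase, stood at 0.97 in KO GDX and 4.04 in KO females (difference -3.07 ± 0.53, adjusted p 0.00514), Fetub, fetuin B, at 1.09 in KO GDX and 3.96 in KO females (difference -2.87 ± 0.58, adjusted p 0.0103), and Fdps, farnesyl diphosphate synthase of cholesterol synthesis, at 0.40 in KO GDX and 2.33 in KO females (difference -1.93 ± 0.49, adjusted p 0.0328). In these 4 genes the change of KO GDX was below that of KO females, and with the medulla covariate the differences of Fetub (adjusted p 0.117) and Fdps (0.243) were not called. Spink8 was dim in GDX males, at means of 4.92 in KO GDX and 4.57 in WT GDX.

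In the other direction, the genes named next fell in KO females and were not called in KO GDX. Cyp11b2 stood at -0.27 in KO GDX and -2.30 in KO females (difference 2.03 ± 0.51, adjusted p 0.0293), and the glomerulosa gene Vsnl1 at -1.24 in KO GDX and -3.57 in KO females (difference 2.33 ± 0.56, adjusted p 0.0245). The fat-associated genes Retn (difference 2.88 ± 0.52, adjusted p 0.00595), Lgals12 (2.71 ± 0.71, adjusted p 0.0382), Car3 (2.21 ± 0.49, adjusted p 0.0172) and Scd1 (1.78 ± 0.47, adjusted p 0.0408) and the stromal gene Lum (2.00 ± 0.45, adjusted p 0.0171) were among them, beside Aldh1a2 (1.40 ± 0.24, adjusted p 0.00514), a retinoic acid synthesis gene, and Tenm3 (1.64 ± 0.26, adjusted p 0.00421). The differences of Cyp11b2, Vsnl1, Lgals12, Scd1 and Fdps were lost without single GDX arrays (adjusted p up to 0.0706, 0.0643, 0.0847, 0.0847 and 0.0816 in that order), and that of Scd1 also with the block (adjusted p 0.0511). With the medulla covariate the differences of Cyp11b2 (adjusted p 0.218), Vsnl1 (0.164), Lgals12 (0.117), Scd1 (0.109), Car3 (0.0784) and Lum (0.0959) were not called, and those of Retn (0.0487), Aldh1a2 (0.047) and Tenm3 (0.0373) were.

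Fa2h had a larger fall in KO GDX (-2.77) than in KO females (-0.50). The difference was -2.27 ± 0.57, adjusted p 0.0285, was not called with the block (adjusted p 0.0965) and was lost without WT GDX array 2 or 4 (up to 0.0663). Zbtb16 and Bmp4 rose in KO GDX and stood at 0.16 and 0.02 in KO females, with differences of 0.71 ± 0.19, adjusted p 0.0407 for Zbtb16 and 0.53 ± 0.13, adjusted p 0.0277 for Bmp4. Both differences were lost without single arrays (up to 0.0823 and 0.0587), and that of Zbtb16 with the block (0.061). With the medulla covariate none of these 3 differences was called (adjusted p 0.178 for Fa2h, 0.249 for Zbtb16 and 0.135 for Bmp4). In KO intact males the changes were 0.81 for Zbtb16 and 0.61 for Bmp4, both called there.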

How the data were processed

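RNA of whole adrenals was measured on Affymetrix mouse gene arrays, from biotinylated cDNA per the labels' protocols. The values are log2 signals deposited by the authors, made with RMA per the submitters' processing notes; its software version was not given in the sources used here. Of 32202 probe sets, 22943 carry 1 gene symbol, 1731 several and 7528 none, and only those with 1 symbol entered the tests by gene. Each of 21957 genes was represented by its probe set of highest mean, and 14411 had a log2 value over 5 in at least 4 of the 24 arrays. Limma 3.58.1 in R 4.3.3 (lmFit and eBayes, default settings) fitted the 6 group means over 24 arrays, with 18 residual and 3.41 prior degrees of freedom, and was tested on simulated data. The tests give KO GDX minus WT GDX and its difference from intact males and from females. The replicate numbers pair the samples by the rule used: deviations of same-numbered KO GDX and WT GDX arrays from their group means correlated at 0.12, 0.158, 0.243 and 0.175, other pairs at -0.201 to 0.0582. The adjusted p with that number as a block is printed where it changes a call of a gene named by the following rule. Genes named are Prkar1a and Cyp11b2, the 25 largest called rises and falls without overlap between the groups (predicted symbols aside), members of the lists, the 10 largest called differences in each direction of each interaction, and called genes within 5 Mb of Prkar1a or Cyp11b2. The members and lists were chosen with earlier results of these data known. Of 536 list entries 456 symbols matched a gene, with older symbols and coordinates taken from RefSeq (GRCm38.p6). Alternatives changed the block, the arrays fitted, the filter, the probe set rule, the normalization, the variance model, covariates and single arrays. Scan and hybridisation batches were not used here. Promoters were searched and figures drawn in Python 3.11.15.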

Additional observations from a re-analysis of the deposited data

Results flagged for a closer look

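Single arrays stood apart from the other 3 of their group in 18 of 290 groups of 4 examined by Dixon's test, where chance alone, at about 1 in 20, gives 14.5, so the number of flags is near that of chance. Of these, 12 were KO GDX arrays and 6 WT GDX arrays. Array 1 of KO GDX was apart in Scarb1 (12.05, the lowest), Dab2 (11.14, the highest), Snora16a (9.22, the lowest) and the list means of CREB and immediate early targets (8.32, the highest) and of glutathione and oxidative stress genes (8.76, the lowest). Array 2 of KO GDX was apart in Star (13.08, the lowest), the macrophage gene Vsig4 (4.93, the highest) and the list means of proliferation (6.74) and erythrocyte markers (6.69), where it was the highest. Array 3 of KO GDX was the highest in the adipocyte mean (9.57), and array 4 the highest in the cilium gene Rsph4a (8.06) and the lowest in Retn (10.05). Among the WT GDX arrays, array 1, without Cre, was apart in Cyp17a1 (7.64) and the WNT target mean (7.73), where it was the highest, and in Rsph4a (6.55), where it was the lowest. Array 2 was the lowest in the potassium channel mean (6.82), array 3 the lowest in Ptprz1 (4.52), and array 4, with 1 floxed allele, the highest in Scarb1 (11.82).

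The knockout effect differed between GDX and intact males, by the interaction test, in Acpp (-2.42), Eda (0.64), Ceacam1 (1.50) and Bpifc (2.79). With the medulla mean as a covariate, Acpp and Bpifc were still called. For the difference between GDX males and females, 25 of the 34 genes below were not called with that covariate, all but Acpp, Spink8, Ptprz1, Vsig4, Fdx1, Eda, Retn, Tenm3 and Aldh1a2, and 16 were not called without 1 or more single arrays, Kng2 without any of 6. In the fit over 24 arrays it differed downward in Acpp (-3.30), Spink8 (-3.21), Ptprz1 (-3.07), Fetub (-2.87), the kininogen gene Kng2 (-2.65), Vsig4 (-2.42), Fa2h (-2.27), Rsph4a (-2.23), Tgm3 (-1.95), Fdps (-1.93), Gsta3 (-1.60), Itga2 (-1.41), Trim34a (-1.02), Ttk (-0.96), Fdx1 (-0.80) and Eda (-0.66). It differed upward in the glycogen phosphorylase gene Pygm (2.95), Retn (2.88), Lgals12 (2.71), Vsnl1 (2.33), Car3 (2.21), Cyp11b2 (2.03), Lum (2.00), Scd1 (1.78), Tenm3 (1.64), Aldh1a2 (1.40), Cacna1h (0.92), Apcdd1 (0.88), Lgals1 (0.87), Rspo3 (0.77), Zbtb16 (0.71), Kcnma1 (0.59), Dab2 (0.57) and Bmp4 (0.53). Of 3687 probe sets with several or no gene symbol, outside the tests by gene and fitted on their own, 80 were called, 45 higher and 35 lower in KO GDX. That is a smaller share than the 4.23% of genes called in the tests by gene.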

How the results depend on the processing

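The number of array pairs limits the precision, and the count of called genes moved with the settings. Against 609 genes (325 higher, 284 lower) in the fit over 24 arrays, the replicate block within the GDX arrays alone gave 118 (69 higher, 49 lower), the GDX arrays without a block 49 (27 higher, 22 lower) and array weights 1200 (600 higher, 600 lower); these fits differ in the arrays or weights they use. The lower count was 176 with the replicate block over all 24 arrays and 178 with no filter on low values. Leaving out 1 of the 8 arrays gave 214 to 1180 genes, 138 to 572 higher and 76 to 608 lower. The difference from intact males was called for 4 genes, against 45 with array weights, 2 with the medulla mean and 11 with the adipocyte mean as a covariate, and 2 to 88 with 1 array left out. The difference from females was called for 477 genes, against 937 with array weights, 67 with the medulla mean as a covariate, and 236 to 663 with 1 array left out. The cause of these shifts was not tested.

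Of the 80 called genes named besides Prkar1a by the rule given with the processing, 67 remained called with the replicate block over all arrays, 37 with the block in the GDX arrays alone, 23 with the GDX arrays alone and 70 without the filter, and none turned its direction in these 4 fits. Vsig8 and the genes named only in the symbol classes below are outside these counts. Among the genes named by that rule, the block changed no other call than those printed beside it. The direction turned for genes not called: Scd1 was at 0.0022 with the medulla mean and 0.075 with the adipocyte mean as a covariate, Lgals12 at 0.093 with the adipocyte mean, and Lum at -0.13 with array weights. With 1 array left out, the change ranged over -0.24 to 0.15 in Scd1, -0.40 to 0.33 in Lgals12, -0.32 to 0.34 in Lum, -0.51 to 0.031 in Cyp11b2, -0.35 to 0.016 in Car3, -0.050 to 0.49 in Vsig4, -0.052 to 0.28 in Retn and -1.18 to 0.23 in Cyp17a1.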

Other observations

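The classes of genes below were picked by symbol after the values had been seen, and are given as counts and values, to be read beside the 2.26% of all genes called higher and 1.97% called lower. Of 70 tested small nucleolar and Cajal body RNAs, which guide the chemical modification of ribosomal and spliceosomal RNA, 16 fell (22.9%) and 1 rose (1.43%) in KO GDX, 10 and 1 with the replicate block, and the median change was -0.23. Their mean level was 8.24, 8.20, 8.19 and 8.20 in KO GDX arrays 1 to 4, against 8.34, 8.45, 8.48 and 8.57 in WT GDX arrays 1 to 4, without overlap. Besides Snord123 and Snora16a those that fell include Snora47, Snora61, Snora68, Snora69 and Snord104, and the member that rose was Snora44. Many of them lie in introns of host genes, and whether host transcripts moved with them was not tested.

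Of 256 tested solute carriers, the membrane transporters of ions, amino acids and other small molecules, 26 rose (10.2%) and 1 fell (0.391%), against 19 and 3 with the block, with a median of 0.04. Their mean was 7.06, 7.11, 7.15 and 7.13 in KO GDX, against 7.05, 7.01, 7.06 and 7.01 in WT GDX, so that KO GDX array 1 lay within the WT GDX range. Called members include Slc7a8 and its partner chain gene Slc3a2, the iron transporter gene Slc11a2, the ascorbate transporter gene Slc23a2 and the folate transporter gene Slc46a1. Of 17 subunits of the vacuolar proton pump 3 rose and 0 with the block, of 189 microRNA genes 6 fell (3.17%, near the share of all genes) and 2 with the block, and of 24 histone genes 2 rose and 3 fell (1 and 3 with the block).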
